A study of Mus musculus with 8 samples.

Results

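Zscan4a, Zscan4b, Zscan4c, Zscan4d, Zscan4e and Zscan4f are 6 neighbouring genes of the Zscan4 cluster on mouse chromosome 7, taken by symbol from a table of 32728 genes, and all 6 were found. They were chosen by their fold change between the media, that is because their counts were low in medium without EGF in these same libraries, so their difference between the media is given as a description and without a test. The libraries came from mouse APS colon cancer organoids, which are C57BL/6 colon organoids made tumorigenic by CRISPR knockout of Apc, Trp53 and Smad4. Every library carries these knockouts, and there was no unedited control. Both lines used, apsMC706 (labelled female) and CTO19 (labelled male), stand in the series as 2 biological replicates of the genotype. Each was grown for 3 days in EM medium, which holds B27, noggin, galunisertib (an inhibitor of the TGF-beta receptor) and EGF, or for 7 days in noEGF medium, from which EGF was left out from the start. There were 2 libraries in each of the 4 groups, 8 in all. Medium and days in culture cannot be told apart, nor can line and labelled sex. The labels do not say whether the 2 libraries of a group came from separate cultures. P-values within a line or medium, and for the difference of responses, thus measure the spread between libraries, which may be technical. P-values over both lines come from a model with no term for a response that differs between the lines. There such a difference counts as spread, so a gene whose lines disagree may go uncalled.

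Zscan4 genes encode proteins with a SCAN domain, through which such factors pair, and zinc fingers that bind DNA. In the mouse they are switched on in the embryo when its own genome first becomes active, at the 2-cell stage, and in a small, changing fraction of cultured embryonic stem cells. There they are known for their part in telomere lengthening and genome stability. In the embryo and in those stem cells Zscan4 is turned on with a set of genes driven by the factor Dux and by retroviral long terminal repeats, and chromatin silencing keeps this set off in other cells. In bulk RNA, fewer cells expressing a gene and less of its RNA per cell cannot be told apart.

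The 6 genes lie within 608 kb of chromosome 7 (mm10, from 10794242 to 11402318), each with an exonic length of 1793 to 2279 bases. In the GENCODE M21 annotation Zscan4b, Zscan4c, Zscan4d, Zscan4e and Zscan4f are protein coding and Zscan4a is an unprocessed pseudogene. RefSeq lists Zscan4e as a pseudogene. The GENCODE annotation has 9 Zscan4 genes in the cluster, and the count table has 8 of them, the other 2 being Zscan4-ps1 and Zscan4-ps3. The coding sequences of the 5 coding members were 96.4% to 99.7% identical over their 10 pairs. Of the 50-base stretches of exonic sequence, 49.6% in Zscan4d, 63.6% in Zscan4a and 85.5% to 90.1% in the other 4 also occurred in another gene of the cluster. The first 120 coding bases show how little there is to tell the genes apart: they were identical in Zscan4b, Zscan4c, Zscan4e and Zscan4f, and in the matching stretch of Zscan4a. Zscan4d differed from them at 3 positions, A61T, G64C and C86T, counted from 1 at the A of the start codon, with the base of Zscan4c first. These bases are in capitals below (GENCODE M21 transcripts, mm10, Zscan4c at chr7:11006556-11006675 on the plus strand and Zscan4d at chr7:11165229-11165348 on the minus strand, the start of their coding exons).
Zscan4c: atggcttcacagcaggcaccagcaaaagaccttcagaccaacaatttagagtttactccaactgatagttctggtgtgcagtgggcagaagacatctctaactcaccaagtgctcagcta
Zscan4d: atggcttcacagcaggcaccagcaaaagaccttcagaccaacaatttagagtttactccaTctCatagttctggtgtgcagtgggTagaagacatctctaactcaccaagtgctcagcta

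The promoters are also near copies, which matters for genes that are read as one. RefSeq promoter sequences (GRCm38.p6, 250 bases before to 50 bases after the annotated start) matched 4 of the 6 members. A 140-base window ending upstream of the transcripts was identical at 132 positions in all 4, and 8 positions varied. Zscan4c and Zscan4f differed at 1 position, and Zscan4b and Zscan4f at 7. The windows are shown with the TATA motif TATAAA in capitals, Zscan4b at chr7:10905051-10905190 (minus strand), Zscan4c at chr7:11005582-11005721 (plus), Zscan4d at chr7:11166183-11166322 (minus) and Zscan4f at chr7:11397775-11397914 (plus).
Zscan4b: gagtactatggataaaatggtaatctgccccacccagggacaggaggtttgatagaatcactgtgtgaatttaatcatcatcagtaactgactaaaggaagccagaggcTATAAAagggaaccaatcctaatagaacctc
Zscan4c: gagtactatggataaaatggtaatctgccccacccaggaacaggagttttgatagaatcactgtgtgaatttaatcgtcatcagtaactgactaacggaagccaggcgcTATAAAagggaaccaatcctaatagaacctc
Zscan4d: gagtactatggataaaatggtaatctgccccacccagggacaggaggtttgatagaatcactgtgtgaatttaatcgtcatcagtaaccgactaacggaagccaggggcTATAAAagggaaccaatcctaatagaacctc
Zscan4f: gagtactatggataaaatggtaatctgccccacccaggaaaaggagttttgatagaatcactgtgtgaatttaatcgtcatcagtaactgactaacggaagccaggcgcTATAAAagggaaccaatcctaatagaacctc

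Searched on both strands of the 300-base promoters, TATAAA occurred in 4 of 4 Zscan4 promoters and in 13.6% of 32851 RefSeq promoters. CCAAT occurred in 4 of 4 and in 37.4% of all promoters. TGCACAC, a motif reported for binding of the Zscan4 protein, occurred in 0 of 4 and in 4.40% of all promoters. The 4 promoters held 1 to 4 CG dinucleotides in 300 bases, against a median of 7 over all promoters, of which 38.0% held 4 or fewer. These matches describe the letters of the window only.

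Library totals ranged from 35650262 to 38953838 counts, so that 3 counts, the limit that a count of 0 allows, came to 0.0770 to 0.0842 CPM (counts scaled to a library of 1e6) per library, counting error only. A filter on low counts left 16719 genes, and all 6 members passed it. Mitochondrially encoded genes took 2.94% to 3.68% of the counts in EM and 4.13% to 5.19% in noEGF. The part of this in the results below was not tested. The mRNA of the targeted genes was present in every library (Apc 2130 to 7272 counts, Trp53 479 to 1197 and Smad4 384 to 1509), which checks no label, since all groups carry the knockouts. Colon epithelial markers summed to 2956 to 3802 CPM over the libraries, with Epcam, Cdh1 and the keratins among the 10 listed, Krt20 at 0 in apsMC706 EM and Cdx1 at 0 in CTO19 EM. Markers of fibroblasts (7 genes, 1.85 to 11.4 CPM in sum) and of immune cells (6 genes, 1.19 to 13.2 CPM) were low and were higher in noEGF than in EM in both lines, with Col1a2, Lum and Thy1 at 0 in apsMC706 and Cd3e at 0 in EM in both lines. Much of this rise in CTO19 came from Dcn (mean 0.100 to 9.90 CPM, adjusted p = 4.57e-10) and Csf1r (0.658 to 6.46 CPM, adjusted p = 9.70e-08), and in apsMC706 from Cd68 (1.26 to 7.62 CPM, adjusted p = 5.58e-10) and Col3a1 (3.85 to 7.84 CPM, adjusted p = 0.00172). Col3a1 had 0.212 and 0.0994 CPM in CTO19 EM and noEGF. The part of these 2 lists was not tested.

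Zscan4 RNA was present in these colon cancer organoids in all 8 libraries, and its level followed both line and medium. Summed over the 6 genes, apsMC706 had 2260 and 2117 counts in EM and 234 and 150 in noEGF. CTO19 had 9344 and 8568 counts in EM and 4045 and 3662 in noEGF. The ranges of the 4 groups do not overlap, and the share of all genes for which this holds was not counted. The order was the same on the CPM scale, with 256 ± 21.1 (SD, n = 2) in CTO19 EM, 99.9 ± 12.6 in CTO19 noEGF, 58.7 ± 1.51 in apsMC706 EM and 5.17 ± 1.71 in apsMC706 noEGF. CTO19 without EGF thus still held more Zscan4 counts than apsMC706 with EGF, and the lowest CTO19 noEGF library (91.0 CPM) lay above the highest apsMC706 EM library (59.8 CPM). The difference between these 2 groups was not tested.

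The most counted member was Zscan4f. Its counts were 468 and 440 in apsMC706 EM, 41 and 34 in apsMC706 noEGF, 1971 and 1774 in CTO19 EM, and 857 and 774 in CTO19 noEGF. On a scale per length, its mean level was 27.3 CPM per kb of exon in CTO19 EM, where 85.9% of the 16719 tested genes were lower. It was 10.8 in CTO19 noEGF (69.0% of genes lower), 6.22 in apsMC706 EM (58.0%) and 0.515 in apsMC706 noEGF (23.1%). Its place among the tested genes thus moved from well above the middle in CTO19 EM to the lower part in apsMC706 noEGF.

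Zscan4c, which differs from Zscan4f at 6 coding positions, had 464 and 436 counts in apsMC706 EM, 44 and 30 in noEGF, 1934 and 1761 in CTO19 EM, and 854 and 764 in noEGF. Zscan4a, the annotated pseudogene, had 372 and 316, 41 and 22, 1508 and 1395, and 664 and 614 counts in the same order of groups. The pseudogene was therefore counted about as often as the coding members. Zscan4b had 317 and 324, 39 and 22, 1305 and 1246, and 546 and 502 counts in that order. Zscan4e had 334 and 341, 44 and 23, 1358 and 1262, and 577 and 520. These 2 genes differ at 4 coding positions, and their counts in a library differed by at most 53. Zscan4d, the member with the most sequence of its own, had the fewest counts over all libraries together, 305 and 260, 25 and 19, 1268 and 1130, and 547 and 488. For each of the 6 genes the ranges of the 4 groups do not overlap, and the order of the groups was the same. These are not 6 separate observations, since the genes share sequence and were chosen for their low counts in noEGF. The 2 cluster genes outside the list had counts of the same size, 20 to 1229 in Zscan4-ps1 and 26 to 1624 in Zscan4-ps3, with the lowest in apsMC706 noEGF and the highest in CTO19 EM for both.

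**Figure D1:**
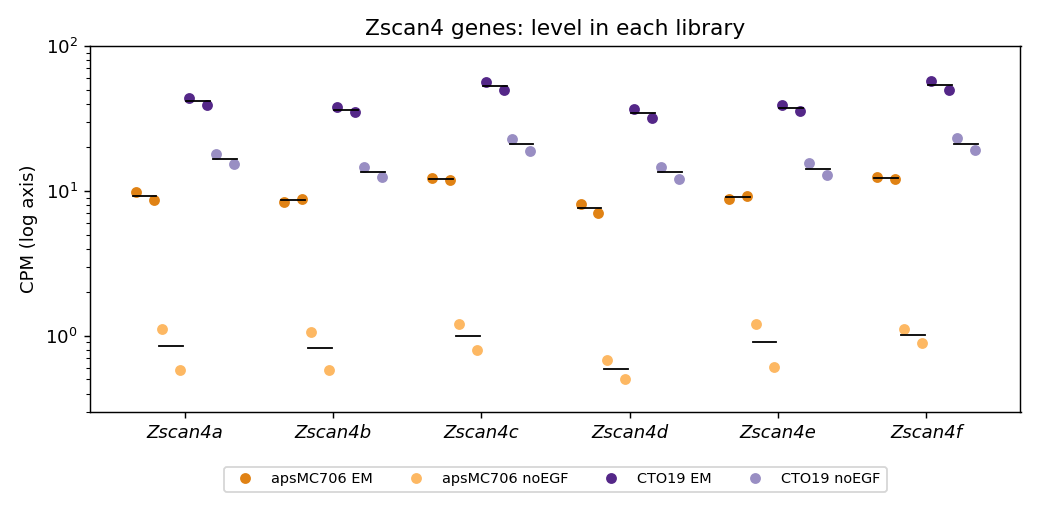
Level of each Zscan4 gene in each of the 8 libraries, in CPM on a log axis. Points are libraries, 2 per group, and lines are group means. For each gene the CTO19 EM libraries are highest, from 31.7 CPM in Zscan4d to 57.1 CPM in Zscan4f, and the apsMC706 noEGF libraries are lowest, from 0.502 to 1.20 CPM.

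How far each gene has counts of its own is limited by the shared sequence. How reads that fit several genes were counted is not given in the sources used here. If such a read was counted for each gene it fits, the sum counts it several times, and the number of distinct reads lies between the largest single count and the sum. The sum was 4.41 to 5.32 times the largest single count over the libraries. The counts did not follow the amount of unshared sequence: Zscan4d, with 1121 unshared 50-base stretches, had 4042 counts over the 8 libraries, and Zscan4f, with 259, had 6359. That is 3.61 counts per unshared stretch in Zscan4d and 24.6 in Zscan4f.

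Each gene made up a similar share of the sum in the 4 groups. With the 2 libraries of a group added, Zscan4f took 20.7% of the sum in apsMC706 EM (95% Wilson interval 19.6% to 22.0%), 19.5% (15.9% to 23.8%) in apsMC706 noEGF, 20.9% (20.3% to 21.5%) in CTO19 EM and 21.2% (20.3% to 22.1%) in CTO19 noEGF. Zscan4d took 12.9% (11.9% to 13.9%), 11.5% (8.65% to 15.0%), 13.4% (12.9% to 13.9%) and 13.4% (12.7% to 14.2%) in the same order. Zscan4e, whose share varied most, took 15.4% (14.4% to 16.5%), 17.4% (14.0% to 21.6%), 14.6% (14.1% to 15.2%) and 14.2% (13.5% to 15.0%). In each of these genes the intervals of the 4 groups overlap, but a difference of share between groups was not tested. In apsMC706 noEGF, with 384 counts in the sum, a change of a few percentage points could not have been seen. The intervals cover counting error only and treat counts as separate reads. Reads that fit several genes may enter several of these shares, so a change in the sum cannot be assigned to 1 member.

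**Figure D2:**
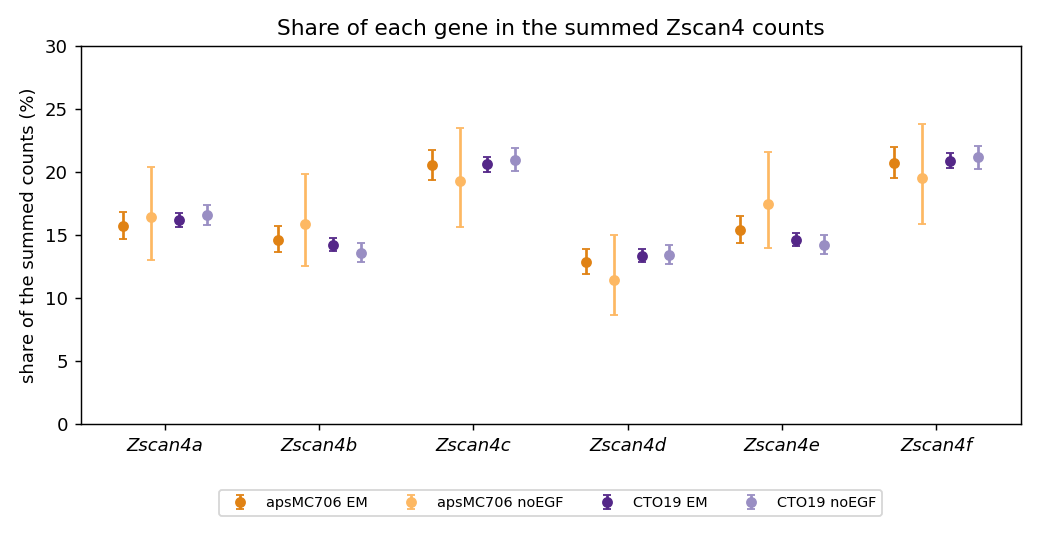
Share of each gene in the summed counts of the 6 Zscan4 genes (percent), with the 2 libraries of each group added and bars for 95% Wilson intervals, which cover counting error only. The share of a gene ranges between groups from 19.5% to 21.2% for Zscan4f and, the widest range, from 14.2% to 17.4% for Zscan4e. The intervals are widest in apsMC706 noEGF.

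The medium contrast, by which the genes were chosen, is described for each line. In apsMC706 the summed genes were 11.4-fold lower in noEGF than in EM (log2 fold change -3.51, SE 0.22), and taken singly the genes had log2 fold changes of -3.33 (Zscan4e) to -3.67 (Zscan4d). In CTO19 the sum was 2.56-fold lower (-1.36, SE 0.15), and single genes were 2.50-fold (Zscan4a) to 2.68-fold (Zscan4b) lower. Over both lines, with line and medium as 2 terms of 1 model, the log2 fold change of the sum was -2.37 (SE 0.45), and of single genes -2.28 to -2.19. Of all tested genes 48.8% were called in that comparison and 23.3% of all tested genes were called lower, and nothing is read from the place of the members among these. The apsMC706 value rests on the small counts of its noEGF libraries: without noEGF replicate 1 the sum was 14.9-fold lower, and without replicate 2 it was 9.27-fold lower.

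The response differed between the lines. This contrast was not the one used to choose the genes, but it is computed from the same counts. Its p-values are therefore not independent of the choice, and the same holds for the comparisons of the lines below. The difference of the log2 fold changes (CTO19 minus apsMC706) was 2.15 for the sum (SE 0.27, normal 95% interval 1.62 to 2.68, edgeR quasi-likelihood test, adjusted p = 0.00159). This interval and those of the line comparisons below use the normal distribution. They are narrower than intervals that allow for the few residual degrees of freedom (4 with the group means). Singly, the difference was 1.93 (SE 0.26) in Zscan4e to 2.32 (SE 0.26) in Zscan4d, with adjusted p between 1.74e-06 and 8.44e-05. Such a difference was common in these data: 56.0% of all tested genes were called for it, 30.4% with a positive sign. The 6 values are not separate evidence, since the genes share sequence and counts.

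CTO19 had more Zscan4 RNA than apsMC706 in both media. In EM the sum was 4.35-fold higher in CTO19 (log2 difference 2.12, SE 0.16, 95% interval 1.82 to 2.43, edgeR adjusted p = 0.000107), and single genes were 4.12-fold (Zscan4e) to 4.51-fold (Zscan4d) higher. In noEGF the sum was 19.4-fold higher in CTO19 (4.28, SE 0.21, 95% interval 3.86 to 4.69, adjusted p = 1.44e-05), and single genes were 15.7-fold to 22.6-fold higher. Of all tested genes 71.3% were called between the lines in EM (37.5% higher in CTO19) and 80.0% in noEGF (45.7% higher), where the median of all genes was 0.13 on the log2 scale. A call as such therefore says little here, and the size of the difference is the measurement.

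Other genes of the 2-cell stage were low in the same groups as Zscan4. A list of 34 such genes, written with earlier results of these data known, had 30 that passed the filter. In noEGF against EM over both lines, 29 of 30 fell and none rose, against 23.3% of all genes that fell, and the median log2 fold change was -2.11 against 0.03 over all genes. Within apsMC706 27 of 30 fell (33.1% of all genes, 67.2% called in either direction), with a median of -3.28, or -3.15 with Tdpoz1, whose noEGF counts were 0, at its bound. Within CTO19 29 of 30 fell (33.3% of all genes, 34.7% higher, 68.0% called in either direction), with a median of -1.63. The gene that was not called over both lines was Gm2022, at -0.46 on the log2 scale, which is named here after its values were seen. The 4 genes that did not pass the filter had 0 to 31 counts over all libraries. Several of the list are themselves families of near copies, and reads of these cannot be assigned to 1 gene with certainty.

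Zfp352, a zinc finger gene of the 2-cell embryo, had 24 and 24 counts in apsMC706 EM, 0 and 1 in noEGF, 184 and 153 in CTO19 EM, and 58 and 46 in noEGF. It fell 5.16-fold over both lines (log2 -2.37, SE 0.47, edgeR adjusted p = 0.00541). Tcstv1 and Tcstv3, related genes of unclear function expressed with Zscan4, fell 5.23-fold (adjusted p = 0.00121) and 4.29-fold (adjusted p = 0.00154). Tcstv1 had 36 and 48, 5 and 2, 250 and 226, and 59 and 78 counts in the order of groups used above, and the groups do not overlap. Duxf3, the mouse Dux factor that drives the set, was close to the floor, with 10 and 8, 1 and 1, 41 and 16, and 18 and 14 counts. Its CTO19 groups overlap. It fell 2.64-fold over both lines (log2 -1.40, SE 0.49, adjusted p = 0.0468), a call that was lost with limma-voom (adjusted p = 0.0744), with a replicate block (adjusted p = 0.0511) and on leaving out apsMC706 EM replicate 1 or 2, apsMC706 noEGF replicate 1 or 2, CTO19 EM replicate 1 or CTO19 noEGF replicate 2 in turn (adjusted p = 0.0857 to 0.186).

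Sp110, which encodes a nuclear body protein, had the smallest p of the list. Its counts were 86 and 98 in apsMC706 EM, 13 and 13 in noEGF, 601 and 525 in CTO19 EM, and 202 and 171 in noEGF, with no overlap of groups. It fell 4.37-fold over both lines (log2 -2.13, SE 0.24, adjusted p = 0.000465). Gm13057 and Gm13043, which had nearly the same counts in every library and may share reads, fell 4.50-fold and 4.43-fold (adjusted p = 0.000831 and 0.000876). Gm8300 fell 2.53-fold (adjusted p = 0.000539), by 1.35 in apsMC706 and 1.33 in CTO19 on the log2 scale. The 5 Usp17l genes, which encode deubiquitinating enzymes, all fell, by 1.80 to 2.29 on the log2 scale. Of the 5 Tdpoz genes, whose products hold a TRAF and a POZ domain, 3 passed the filter and all 3 were called lower. Tdpoz4 fell by 2.11 and Tdpoz5 by 2.12 on the log2 scale. Tdpoz1 had 4 and 8 counts in apsMC706 EM and 0 and 0 in noEGF, at least 2.00-fold lower there against a floor of 3 counts per library, and fell by 1.85 on the log2 scale in CTO19 (adjusted p = 0.00253).

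These genes also resembled Zscan4 between the lines. In EM 30 of 30 were higher in CTO19 (37.5% of all genes), with a median log2 difference of 2.34. In noEGF 29 of 30 were higher (45.7% of all genes), with a median of 3.95. The response was smaller in CTO19 for 18 of 30 by the test of the difference (30.4% of all genes), and larger for none. In EM Zfp352 was 7.43-fold higher in CTO19 (adjusted p = 2.67e-08), Sp110 6.50-fold (adjusted p = 1.79e-10) and Duxf3 3.34-fold (adjusted p = 0.00426).

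**Figure D3:**
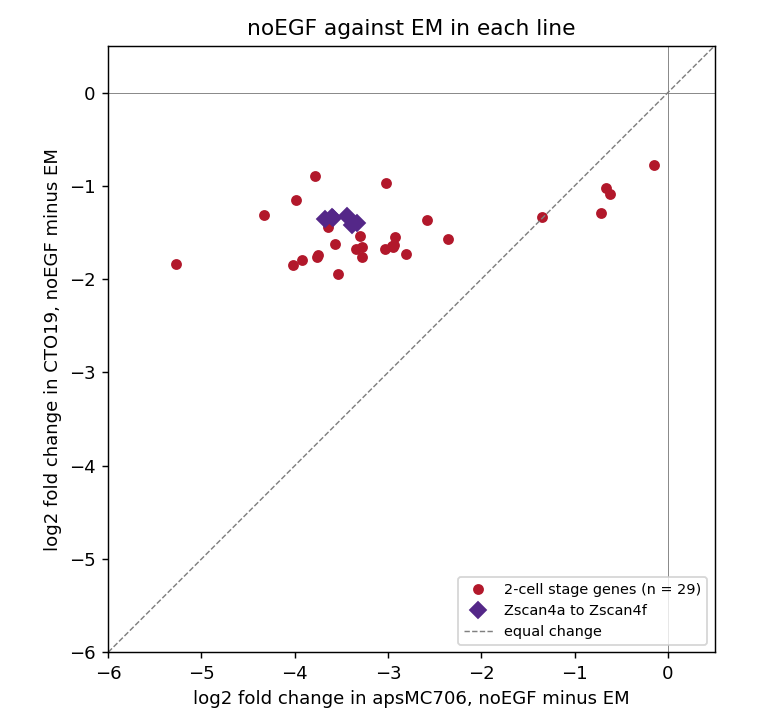
Log2 fold change in noEGF against EM in apsMC706 (x axis) and in CTO19 (y axis) for the 6 Zscan4 genes and the 29 genes of the 2-cell list that passed the filter and had counts in each group. Of the 29 genes 25 lie above the dashed line of equal change, towards a smaller fall in CTO19, and so do the 6 Zscan4 genes.

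Genes of pluripotent cells were mostly at or near the floor. Of 26 listed genes 6 passed the filter. Pou5f1, which encodes the pluripotency factor Oct4, had 8 counts over all libraries, Nanog had 24, Dppa2, an activator of Dux, had 12 and Dppa4, its partner, had 0. Over both lines 2 of 6 fell and 2 rose, against 23.3% and 25.5% of all genes. Tfcp2l1, also a gene of epithelia, fell 1.31-fold (log2 -0.39, SE 0.12, adjusted p = 0.0357) from 51.9 ± 3.27 to 32.7 ± 0.947 CPM in apsMC706 and had 73.0 ± 5.27 and 67.4 ± 7.29 CPM in CTO19 (SD, n = 2 each). This call was lost on leaving out any library but CTO19 EM replicate 2 and CTO19 noEGF replicate 1 (adjusted p = 0.0589 to 0.101), with a replicate block (adjusted p = 0.0582) and with a filter of 1 CPM in at least 4 libraries (adjusted p = 0.0535). Obox3, a homeobox gene of the early embryo, had 3 and 1, 0 and 1, 21 and 11, and 4 and 5 counts and fell 3.78-fold (adjusted p = 0.0152), a call lost without CTO19 EM replicate 1 (adjusted p = 0.0695), CTO19 noEGF replicate 1 (adjusted p = 0.0623) or CTO19 noEGF replicate 2 (adjusted p = 0.0543). Tbx3, a T-box factor, rose 1.46-fold (log2 0.55, SE 0.13, adjusted p = 0.0109). Fgf4, a growth factor of the inner cell mass, had 0 counts in 6 libraries and 19 and 15 in CTO19 noEGF, at least 5.33-fold higher there than in CTO19 EM against a floor of 3 counts per library. Its call (adjusted p = 0.0126) was lost with DESeq2 (adjusted p = 0.233) and without CTO19 noEGF replicate 1 (adjusted p = 0.0547). Without CTO19 EM replicate 1 or either CTO19 noEGF library 2 genes of this list were called in all. The markers of pluripotent cells summed to 0.0792 to 0.185 CPM in apsMC706 and to 0.534 to 0.770 CPM in CTO19, the line with more Zscan4. Dppa5a, the 1 of them that passed the filter, had 0 and 1, 0 and 0, 19 and 14, and 11 and 17 counts. It was higher in CTO19 in EM (edgeR adjusted p = 0.000101) and was not called between the media (adjusted p = 0.395). The markers of germ cells summed to 0.169 to 1.56 CPM. Of these, 4 of 7 (Dazl, Figla, Zp3 and Stra8) were at 0 in the EM groups of both lines, where Zscan4 was highest within each line. Ddx4, the 1 germ cell marker that passed the filter, was counted in every library (18 and 10, 37 and 46, 2 and 2, and 6 and 9 counts) and rose 3.02-fold in noEGF (log2 1.59, SE 0.26, adjusted p = 0.00237). Gdf9 had 2 to 9 counts and Sycp3 0 to 3 counts per library. The part of these markers in the results was not tested.

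Among 32 genes known to keep the 2-cell genes silent or to take part in their control, 13 fell and 3 rose in noEGF over both lines (23.3% and 25.5% of all genes), with a median of -0.18 on the log2 scale. Without apsMC706 noEGF replicate 1 or replicate 2, 7 fell and 3 rose. The lines differed: within apsMC706 21 fell and 6 rose (33.1% and 34.1% of all genes), with a median of -0.34. Within CTO19 14 fell and 12 rose (33.3% and 34.7%), with a median of 0.02, as over all genes (0.02). Ncl, the nucleolar protein nucleolin, which takes part in silencing Dux in embryonic stem cells, fell 1.90-fold over both lines (-0.92, SE 0.07, adjusted p = 0.000126). Its counts were 83320 and 83747 in apsMC706 EM, 43723 and 45524 in noEGF, 58979 and 62344 in CTO19 EM, and 34466 and 35119 in noEGF. E2f6, which recruits a Polycomb complex to germline genes, fell 1.90-fold (-0.93, adjusted p = 0.00046), and Nelfa, a subunit of the factor that pauses RNA polymerase, fell 1.47-fold (-0.55, adjusted p = 0.00027). Rif1, a replication timing factor, fell 1.41-fold (-0.50, adjusted p = 0.000816). Chaf1a, the large subunit of the chromatin assembly factor CAF-1, fell 1.94-fold (-0.96, adjusted p = 0.0098), by 1.52 in apsMC706 and 0.40 in CTO19 on the log2 scale. The 3 that rose were Ring1, a Polycomb ubiquitin ligase (1.65-fold, adjusted p = 0.00213), Zmym2, a zinc finger repressor (1.36-fold, adjusted p = 0.00038), and Ehmt2, the histone methyltransferase G9a (1.26-fold, adjusted p = 0.00215). Trim28, the corepressor KAP1, was not called over both lines (log2 -0.31, adjusted p = 0.082). It fell by 0.63 in apsMC706 (adjusted p = 1.34e-09), from 457 ± 2.50 to 296 ± 2.60 CPM (SD, n = 2), while its CTO19 levels were 411 ± 12.4 and 412 ± 9.44 CPM (adjusted p = 0.973).

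Zscan4 is known to be raised by replication stress through the kinase ATR, and 20 genes of that pathway were counted. In noEGF over both lines 18 of 20 fell and none rose (23.3% and 25.5% of all genes), with a median of -0.69. Within apsMC706 18 fell and 1 rose (33.1% and 34.1% of all genes), and within CTO19 19 fell and 0 rose (33.3% and 34.7%). The gene that rose in apsMC706 was Atr itself (log2 0.38, edgeR adjusted p = 3.77e-06), which fell in CTO19 (-0.55, adjusted p = 1.27e-07). Chek1, the kinase that ATR activates, fell 2.08-fold (-1.05, SE 0.12, adjusted p = 0.000453), with 48.4 ± 0.441, 19.4 ± 1.52, 41.6 ± 0.514 and 24.0 ± 1.50 CPM (SD, n = 2) in apsMC706 EM and noEGF and CTO19 EM and noEGF. Tipin, of the fork protection complex, fell 2.01-fold (adjusted p = 0.000436), Topbp1, an activator of ATR, 1.63-fold (adjusted p = 0.000272) and Rad9a, of the checkpoint clamp, 1.44-fold (adjusted p = 0.000513). Between the lines in EM 14 of 20 were lower in CTO19 and 2 higher (33.8% and 37.5% of all genes), with a median of -0.21. In noEGF 11 of 20 were higher in CTO19 and 6 lower (45.7% and 34.3% of all genes), with a median of 0.18 against 0.13 over all genes. Among those higher there were Clspn, which links ATR to Chek1 (1.39 on the log2 scale), and Timeless, the partner of Tipin (0.89), and Atr itself was lower (-0.82). These are RNA levels and do not measure the activity of ATR. The part of replication stress in the Zscan4 levels was not tested.

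A list of 21 genes for telomere maintenance also holds Spo11 and Dmc1, genes of meiotic recombination. Of the 21, 20 passed the filter, and 8 fell and 2, Tert and Spo11, rose over both lines (23.3% and 25.5% of all genes). Dkc1, Nhp2 and Gar1, proteins of the H/ACA particle that telomerase RNA shares with ribosomal RNA modification, fell 1.89-fold, 1.74-fold and 1.44-fold (adjusted p = 0.000126, 0.000258 and 0.000705). Rtel1, a helicase that unwinds telomere loops, fell 1.73-fold (adjusted p = 0.000266). Tert, the catalytic subunit of telomerase, rose 2.35-fold (log2 1.23, SE 0.26, adjusted p = 0.00692), with 70 and 88, 285 and 286, 177 and 150, and 251 and 318 counts and no overlap between the media within a line. Spo11, the nuclease of meiotic recombination, had 3 and 4, 15 and 10, 186 and 146, and 430 and 782 counts and rose 3.31-fold (adjusted p = 0.0014).

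DNA methylation genes moved in both directions, 5 of 16 lower and 4 higher (23.3% and 25.5% of all genes). Dnmt1, the maintenance methyltransferase, fell 1.79-fold (log2 -0.84, SE 0.13, adjusted p = 0.002), and Uhrf1, which brings it to replicated DNA, fell 2.16-fold (-1.11, SE 0.20, adjusted p = 0.00367). Both fell more in apsMC706 (by 1.15 and 1.62) than in CTO19 (by 0.52 and 0.60), with adjusted p = 1.28e-06 and 1.5e-08 for the difference. Mbd3 and Mbd2, methyl-CpG binding family proteins, fell 1.40-fold and 1.23-fold (adjusted p = 0.000923 and 0.00317). Zfp57, a zinc finger protein that guards methylation at imprinted genes, rose 2.95-fold (1.56, SE 0.16, adjusted p = 0.000326), Dnmt3a, a de novo methyltransferase, rose 1.75-fold (adjusted p = 0.023, but 0.0715 without apsMC706 EM replicate 1, 0.0712 without replicate 2 and 0.0524 without apsMC706 noEGF replicate 1) and Tet2, an enzyme that oxidises methylcytosine, rose 1.32-fold (adjusted p = 0.0118). Tet1 had 0 and 0, 0 and 2, 4 and 2, and 29 and 61 counts and was called higher (adjusted p = 0.00206), with no fold given because apsMC706 EM was at 0.

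The SCAN zinc finger family as a whole did not follow the cluster. Of 27 other SCAN genes 25 were in the table and 21 passed the filter. Over both lines 12 rose in noEGF while none fell (25.5% and 23.3% of all genes), with a median of 0.34. Within apsMC706 12 of 21 rose and 5 fell (34.1% and 33.1% of all genes), and within CTO19 13 rose and 1 fell (34.7% and 33.3%). Zscan18, named after its values were seen, fell 4.45-fold in apsMC706, with 15 and 17, 3 and 4, 10 and 9, and 12 and 15 counts. Zscan2 rose 2.99-fold (log2 1.58, SE 0.17, adjusted p = 0.000389), with 50 and 52, 119 and 119, 62 and 68, and 266 and 276 counts. Zkscan14 rose 2.49-fold (adjusted p = 0.000325), Zkscan3, a repressor of autophagy genes, rose 1.44-fold (adjusted p = 0.0019) and Zfp110 rose 1.32-fold (adjusted p = 0.00314).

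**Figure D4:**
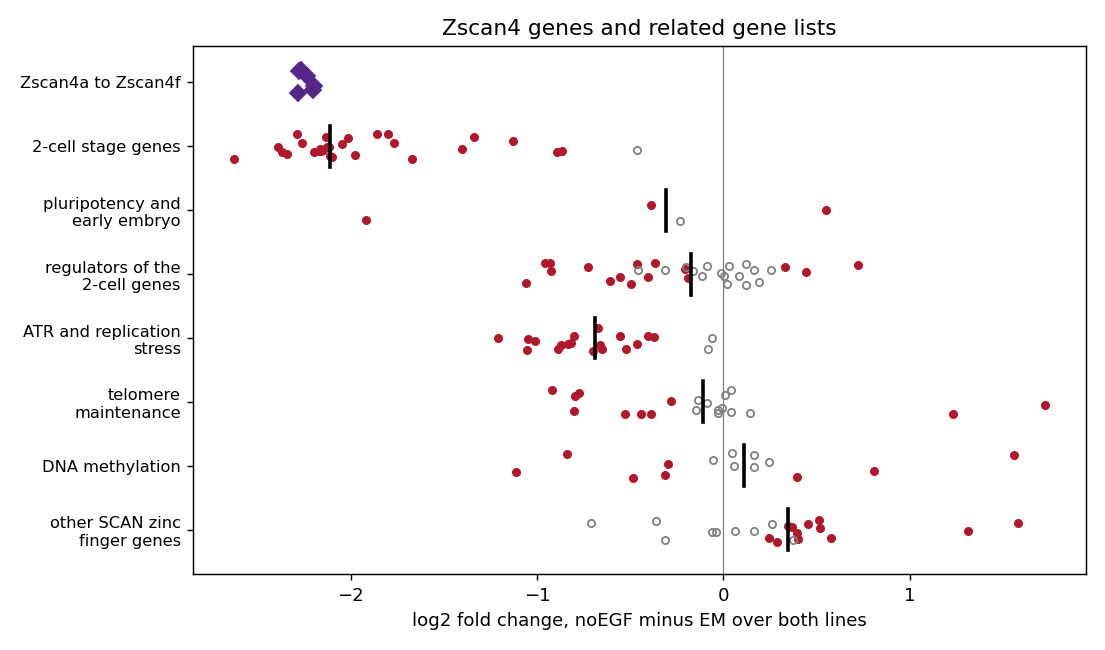
Log2 fold change in noEGF against EM over both lines for the 6 Zscan4 genes (diamonds, described without a test) and the genes of each list that passed the filter. Filled points were called at adjusted p under 0.05, open points were not, vertical lines are medians over all tested genes of the list, and 5 genes with a group at 0 counts are not drawn. The 2-cell list has its median at -2.11, beside the Zscan4 genes at -2.28 to -2.19, and the other lists have medians from -0.69 to 0.34.

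Genes around the cluster had few counts or smaller differences between the media. Of 47 other genes of the table within 500 kb of the 6 members, 21 had no count, many of them vomeronasal receptor genes, and 12 passed the filter. Over both lines 5 of 12 fell and none rose (23.3% and 25.5% of all genes). These were the processed pseudogenes Gm5996, Gm4157, Gm7848, Gm7839 and Gm6929, which fell 1.58-fold, 1.53-fold, 1.51-fold, 1.51-fold and 1.31-fold (adjusted p = 0.021, 0.014, 0.0265, 0.0302 and 0.00813) and whose reads may come from the genes they were copied from. Without apsMC706 EM replicate 1 or 2, or apsMC706 noEGF replicate 1 or 2, only 2 or 3 of them were called. Vmn1r71, a vomeronasal receptor gene, had 6 to 12 counts per library and was not called (adjusted p = 0.37). Zik1, a zinc finger gene beside the cluster, had 0 counts in all 4 apsMC706 libraries and 138 and 102 in CTO19 EM and 139 and 150 in CTO19 noEGF. It was at least 42.7-fold higher in CTO19 in EM and at least 46.1-fold higher in noEGF, against a floor of 3 counts per library, and was not called between the media (adjusted p = 0.726).

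Over the 8 libraries, the genes whose log2 CPM most resembled that of the summed Zscan4 genes were found among 11555 genes of sufficient level. The highest Pearson correlations were those of Zfp180 (r = 0.998), a zinc finger gene, Aqp9 (r = 0.998), an aquaporin for glycerol and urea, Usp17le (r = 0.996), Usp5 (r = 0.996), a deubiquitinating enzyme, Elovl6 (r = 0.996), a fatty acid elongase, Prkar1a (r = 0.996), a regulatory subunit of protein kinase A, Usp17lc (r = 0.996) and Gpx1 (r = 0.996), a glutathione peroxidase. Lowest were Pgls (r = -0.998), Saraf (r = -0.996), Ndufa6 (r = -0.994) and Actr8 (r = -0.994). These points are 4 groups of 2 libraries and share their libraries and depth, and 3.42% of the genes had r over 0.95. A high r thus describes only the order and relative spacing of the 4 groups on the log2 scale. The size of the differences was not alike: Aqp9 had 1.06 ± 0.0732, 0.0673 ± 0.0205, 5.41 ± 0.0539 and 1.96 ± 0.238 CPM (SD, n = 2) in apsMC706 EM and noEGF and CTO19 EM and noEGF, while Zfp180 had 30.9 ± 0.0691, 20.3 ± 0.872, 39.7 ± 0.693 and 34.3 ± 1.01 CPM.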

How the data were processed

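Poly(A) RNA was sequenced in 8 libraries. Per the labels' protocols, the kits were a column extraction, a poly(A) module and a library kit that does not mark strand, with 8 cycles of amplification. Per the submitters' processing notes, reads were aligned with STAR 2.7.0a to mm10. Which counting program and annotation release were used, and how reads that fit several genes were treated, is not given in the sources used here. Values are whole-number read counts for each Ensembl gene, as deposited by the authors. Of 32728 identifiers 32680 matched GENCODE M21.

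From there, genes were kept by filterByExpr (16719 genes, 99.97% of counts) and scaled by TMM, and edgeR 4.0.16 (R 4.3.3) quasi-likelihood tests were run, two-sided, with Benjamini-Hochberg adjustment over all tested genes and a threshold of 0.05. Medium over both lines used terms for line and medium, without their interaction. Contrasts within a line or medium used the 4 group means, with 1 estimate of spread. The biological coefficient of variation was 16.9% in the model over both lines, where it takes in differences of response between the lines. It was 4.27% with the 4 group means. CPM uses TMM factors. The members were fitted singly and, in a second fit, as 1 summed row. The model over both lines was also run on simulated counts, with the spread of the group means and the same medium effect in both lines. That simulation does not show how calls behave where the lines differ in response. Alternatives were DESeq2 1.42.0 (size factors and Wald test), limma-voom (limma 3.58.1), upper-quartile factors, other filters, a replicate block, other sums and leaving out each library.

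The members and gene lists were chosen with earlier results of these data known. Named were, in each list, up to 4 genes per direction of smallest p over both lines plus genes fixed by name, neighbours within 500 kb that passed the filter, and the 8 most and 4 least correlated genes. Replicate numbers did not pair the libraries (correlations of deviations -0.00825 to 0.0485 over 6 group pairs).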

Additional observations from a re-analysis of the deposited data

Results flagged for a closer look

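Each gene below was picked out because its change in noEGF against EM differed between the lines by the edgeR test of the difference (CTO19 minus apsMC706, log2 scale, adjusted p under 0.05). Of all tested genes 56.0% met this, so the size is the information. The summed Zscan4 genes differed by 2.15, and Zscan4a, Zscan4b, Zscan4c, Zscan4d, Zscan4e and Zscan4f by 2.12, 1.96, 2.27, 2.32, 1.93 and 2.25. A positive value means a smaller fall, a larger rise, or a rise against a fall in CTO19.

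Among genes of the 2-cell stage the difference was 3.44 for Zfp352, 1.60 for Tcstv1, 1.62 for Tcstv3, 1.08 for Sp110, 1.29 for Gm13057 and 1.31 for Gm13043. Among silencing and control genes it was 0.63 for Trim28, 1.12 for Chaf1a and 0.49 for E2f6, and -0.53 for Ring1, which rose more in apsMC706. For replication stress genes it was 0.52 for Chek1, 0.51 for Tipin and 0.24 for Topbp1.

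For telomere genes it was -1.20 for Tert, which rose more in apsMC706, -0.24 for Dkc1, 0.30 for Nhp2 and 0.29 for Rtel1. For DNA methylation genes it was 0.63 for Dnmt1, 1.02 for Uhrf1, 0.24 for Mbd3, -0.16 for Mbd2, -0.69 for Zfp57 and -1.19 for Dnmt3a. It was 0.55 for Tfcp2l1, 0.70 for Zscan2 and -0.26 for Zfp110. Of the neighbouring pseudogenes, Gm4157 differed by 0.69, Gm5996 by 0.66, Gm7839 by 0.89 and Gm7848 by 0.87. Of the targeted genes, Apc differed by 0.41 and Smad4 by 0.44.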

How the results depend on the processing

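No result reversed under any alternative. The line differences and the difference of responses of the summed Zscan4 genes kept their sign in all 17 alternatives. The difference of responses was 1.86 to 2.54 on the log2 scale when 1 library was left out. All these values come from the counts by which the genes were chosen, so they are not independent of the choice. The apsMC706 change of the sum was -3.51 and ranged from -3.90 to -3.21 with a library left out, and the change over both lines was -2.37 and ranged from -2.70 to -1.99. Limma-voom gave -1.84 to -1.76 for single members over both lines, against -2.28 to -2.19. With a library left out, genes called numbered 10 to 18 of the control genes (16 in the full data), 2 to 5 of the neighbours (5) and 2 to 4 of the pluripotency genes (4), and with a filter of 1 CPM in 4 libraries 1 pluripotency gene was called. The calls of Dnmt3a, Duxf3, Fgf4, Gm5996, Gm7839, Gm7848, Obox3 and Tfcp2l1 were lost in 2 to 8 alternatives each. Since same-numbered libraries did not deviate together, the replicate block has no basis in the design: with it the sum gave 2.16 for the difference of responses and 27 of the 2-cell genes were called.

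Reads shared between near copies limit every value for a single member, and the counts of apsMC706 noEGF, 150 and 234 in sum, limit the fold in that line.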
